A study of Mus musculus with 12 samples.

Results

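The 10 genes described here mark subtypes of cortical interneurons (CINs), the inhibitory GABAergic neurons of the cortex: the neuropeptide genes *Sst*, *Vip*, *Npy*, *Cck* and *Tac1*, the calcium-binding protein genes *Pvalb*, *Calb1* and *Calb2*, *Reln*, which encodes a secreted glycoprotein, and *Nos1*, which encodes the neuronal nitric oxide synthase. They were chosen by name and are 10 of the 21938 protein-coding genes of the GENCODE annotation (mm10) that were measured. For each gene, a window from 5 kb upstream of its annotated transcription start site (TSS) to the end of the gene was searched for peaks of H3K27ac and H3K27me3.

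Cortices were dissected from *Gad67-GFP* heterozygote mice at postnatal day 2, pooled from 2 to 3 litters per sample and dissociated with papain, and cells were sorted into GFP+ CINs and GFP- non-CINs, the latter enriched for glutamatergic projection neurons and glia. Both populations came from pups that carry the GFP allele, and no other genotype or treatment was compared. Native ChIP was performed for both marks in 2 replicates of each population, which gives 8 peak lists, and 4 input samples served only as controls in the authors' peak calling. GFP marks GABAergic cells as one class, so each CIN list averages all interneuron subtypes present at this age, and a mark in a few cells cannot be told apart from a weak mark in many. A peak here is a stretch the authors called as enriched over input, and absence of a peak means only that none was called.

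H3K27ac is an acetyl mark on histone H3 that sits at active promoters and enhancers. H3K27me3 is a methyl mark placed on the same lysine by Polycomb repressive complexes, typically over CpG-rich promoters of developmental genes that are silent or held ready for later use, and a single histone tail cannot carry both. Interneurons are born in the ganglionic eminences of the embryo and migrate into the cortex, where many subtype features, such as parvalbumin expression in fast-spiking cells, appear only over the first postnatal weeks.

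The H3K27ac lists held 46040 to 62505 peaks over 40.8 to 56.3 Mb, and the H3K27me3 lists 36662 to 45081 peaks over 34.5 to 49.8 Mb. The H3K27me3 lists of replicate 2 covered more of the genome than those of replicate 1 in both populations. Read depths were not analysed here, so no counting error can be given for a peak. The sorted populations were checked against markers: 7 of 9 CIN markers (including *Gad1*, *Gad2* and *Dlx1*) had more H3K27ac in both CIN lists than in both non-CIN lists, and 4 of 4 astrocyte markers had less. Of 6 glutamatergic markers, 1 had more and 1 had less. Of 4 oligodendrocyte lineage markers, *Pdgfra* had more in CINs (1899 and 3668 bp, compared with 981 and 1283 bp in non-CINs) and *Olig2* had less, and the sums over the 4 were 11963 and 14933 bp in CINs, compared with 12425 and 14566 bp in non-CINs. Of 4 microglial markers 2 had less in CINs, as did 1 of 4 endothelial and pericyte markers, and 3 of the 4 markers of either class had an H3K27ac peak in at least 1 list of both populations. The summed H3K27ac of the CIN markers was 75617 and 63642 bp in CINs, compared with 15789 and 17041 bp in non-CINs, so the non-CIN lists were low but not empty. The astrocyte markers summed to 45701 and 42509 bp in CINs, compared with 68014 and 69602 bp in non-CINs, with peaks of all 4 in both populations. Their part in the results below was not tested. H3K27me3 lay in the windows of all 9 CIN markers in all 4 lists, also where CINs carried H3K27ac, as at *Gad1* (12577 and 14240 bp of H3K27me3 in CINs) and *Dlx1* (10607 and 10667 bp). It summed to 87469 and 103083 bp over the 9 in CINs, compared with 96051 and 102572 bp in non-CINs, and 5 of the 9 had less in both CIN lists. *Lhx6*, a CIN marker of the medial ganglionic eminence lineage, had no H3K27ac peak in any of the 4 lists.

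The subtype marker genes mostly carried H3K27me3 and no H3K27ac in both populations. The 9 CIN markers also carried H3K27me3 in both populations, and 8 of them had H3K27ac in CINs. An H3K27me3 peak lay in the window of 9 of the 10 genes in all 4 lists, against 21.1% of all protein-coding genes. *Vip* was the exception. No H3K27ac peak lay in the window of 8 of the 10 genes in any list, against 33.1% of all genes, and the 2 genes with one were *Tac1* and *Reln*. H3K27me3 in all 4 lists with H3K27ac in none was found at 7 genes (*Sst*, *Npy*, *Cck*, *Pvalb*, *Calb1*, *Calb2* and *Nos1*), against 5.68% of all genes. The median share of the window under H3K27me3 was 12.4 to 15.8% over the 10 genes and 0% over all genes in each list. The median window was 18122 bp for the 10 genes and 22425 bp for all genes.

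**Figure D1:**
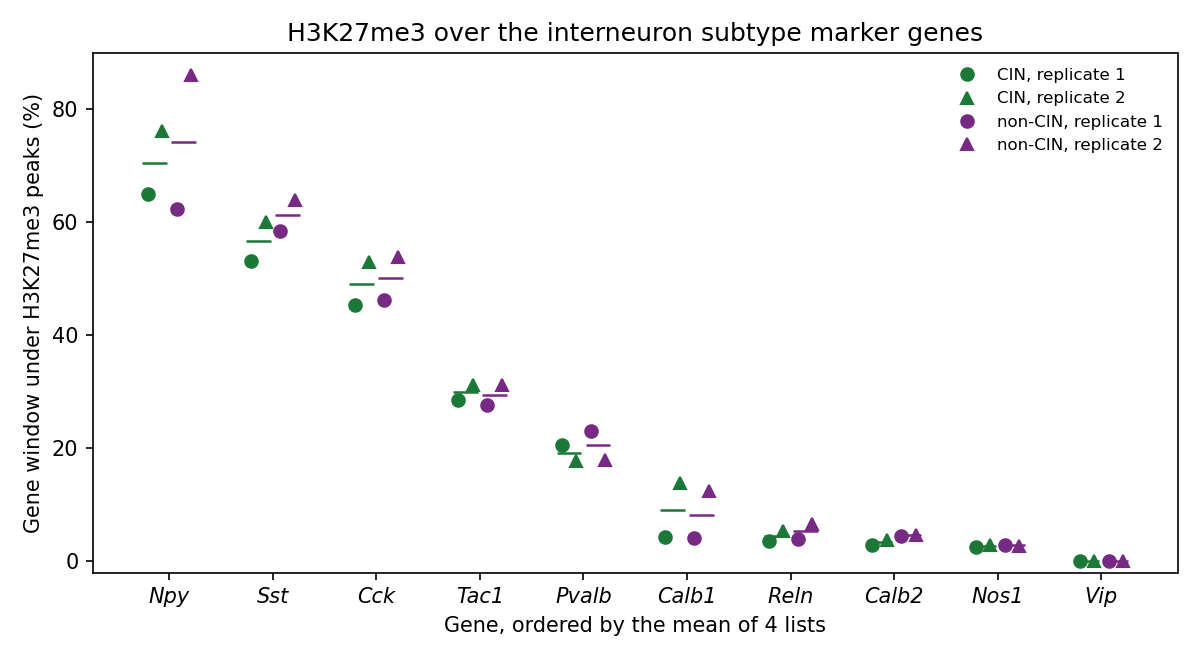
Share of each gene window under H3K27me3 peaks (%, y axis) in each of the 4 lists (circles, replicate 1; triangles, replicate 2; short lines, mean of the 2 lists of a population), with genes ordered by the mean of the 4 lists. CIN and non-CIN values lie close together at each gene, from *Npy* at 62.4 to 86.1% down to *Vip* at 0%.

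At the promoter, taken as 1 kb upstream to 100 bp downstream of the TSS, 6 genes (*Sst*, *Npy*, *Cck*, *Tac1*, *Calb2* and *Reln*) had H3K27me3 in both replicates of both populations, against 8.68% of all genes. None of the 10 had promoter H3K27ac in both replicates of both populations, against 42.2% of all genes, and none had it in both CIN replicates, against 44.8%. *Calb1* had promoter H3K27me3 in both replicates of CINs but in only 1 of 2 replicates of non-CINs. With a promoter window of 2 kb on either side, the number under H3K27me3 was 8. The share of all genes was not computed for this wider window, and the 8.68% does not apply to it.

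Promoter sequences of 8 of the 10 genes were present in the RefSeq promoter table (GRCm38.p6; *Calb1* and *Calb2* were not). The 250 bases upstream of the RefSeq start are printed 5′ to 3′ for 4 genes, with every CG dinucleotide in capitals, because they span the range from a CpG-rich promoter under a long H3K27me3 domain (*Npy*) to promoters with no H3K27me3 peak over the start (*Vip* and *Pvalb*).
Sst promoter, chr16:23890845-23891094, minus strand: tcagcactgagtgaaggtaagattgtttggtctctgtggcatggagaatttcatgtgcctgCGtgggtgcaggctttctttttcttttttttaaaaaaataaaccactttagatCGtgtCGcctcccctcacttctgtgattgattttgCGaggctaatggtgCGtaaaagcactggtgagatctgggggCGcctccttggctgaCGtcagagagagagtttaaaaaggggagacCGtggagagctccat
Npy promoter, chr6:49822460-49822709, plus strand: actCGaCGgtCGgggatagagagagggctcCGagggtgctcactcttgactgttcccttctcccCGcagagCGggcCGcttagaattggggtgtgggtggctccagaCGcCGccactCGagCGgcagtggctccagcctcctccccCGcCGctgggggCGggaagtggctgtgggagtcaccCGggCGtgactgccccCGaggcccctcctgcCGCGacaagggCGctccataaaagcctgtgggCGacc
Vip promoter, chr10:5638968-5639217, plus strand: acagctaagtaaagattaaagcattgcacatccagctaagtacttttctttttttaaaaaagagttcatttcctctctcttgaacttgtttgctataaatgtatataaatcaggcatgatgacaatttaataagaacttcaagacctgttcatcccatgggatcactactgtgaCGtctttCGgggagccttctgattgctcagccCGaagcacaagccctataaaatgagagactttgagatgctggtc
Pvalb promoter, chr15:78206401-78206650, minus strand: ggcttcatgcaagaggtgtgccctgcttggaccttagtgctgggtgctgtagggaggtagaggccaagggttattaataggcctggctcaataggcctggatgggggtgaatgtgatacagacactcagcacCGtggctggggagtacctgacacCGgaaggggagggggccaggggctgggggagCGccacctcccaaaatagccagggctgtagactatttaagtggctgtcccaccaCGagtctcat

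In these stretches *Npy* had 21 CG dinucleotides, *Sst* 8, *Pvalb* 4 and *Vip* 3. Over 300 bases, from 250 upstream to 50 downstream of the start, the observed over expected CpG ratio was 1.01 for *Tac1* and *Reln*, 0.71 for *Sst*, 0.69 for *Npy*, 0.38 for *Cck*, 0.31 for *Vip*, 0.28 for *Nos1* and 0.20 for *Pvalb*, with a median of 0.59 over 20150 promoters. The RefSeq start used for *Nos1* lies 85807 bp inside the gene, close to the GENCODE basic starts at 86082 and 86087 bp, and its ratio does not describe the basic start at 60818 bp that lay under H3K27me3. Peaks of all 4 H3K27me3 lists covered the whole 300 bases at *Sst*, *Npy*, *Cck* and *Tac1*. *Cck* had this cover with a ratio below the median, and *Reln* lacked it with one of the highest ratios. The motifs searched on both strands were the cAMP response element (CRE) TGACGTCA, the homeodomain core TAATTA, the SOX core CTTTGT, the MEIS core CTGTCA and the TATA box core TATAAA, and matches of different motifs were allowed to overlap. The *Sst* promoter held 1 CRE, starting 48 bases before the RefSeq start (2.31% of promoters held one). *Tac1* held 1 TAATTA (4.48% of promoters) and *Vip* 3 TATAAA (12.2% of promoters). No other match was found in the 8 promoters.

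*Sst* encodes somatostatin, the peptide of dendrite-targeting interneurons such as Martinotti cells. Its window (chr16:23889573-23895958, minus strand) had 3401 and 3835 bp under H3K27me3 in the CIN lists, against 3738 and 4084 bp in the non-CIN lists. The groups overlapped, at 3618 ± 307 bp in CINs and 3911 ± 245 bp in non-CINs (SD, n = 2). In all 4 lists a single peak lay over the TSS, 3431 to 5535 bp long and thus longer than the gene itself (1386 bp). Its fold enrichment over input ranked at percentiles 90.2 and 93.6 of the CIN lists, against 82.9 and 91.6 of the non-CIN lists, where the percentile is the share of peaks in the same list with a fold not above it. The window held no H3K27ac peak.

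*Npy* encodes neuropeptide Y, made by neurogliaform and by many somatostatin cells. H3K27me3 covered 7671 and 8981 bp of its window (chr6:49817710-49829507, plus strand) in CINs, compared with 7366 and 10157 bp in non-CINs, or 62.4 to 86.1% of it, the highest share among the 10 genes in every list. The non-CIN values lay on both sides of the CIN values. The peak over the TSS was 6784 to 9462 bp long, at percentiles 97.8 to 99.2. The nearest H3K27ac peak was 23515 and 51777 bp from the TSS in the CIN lists, against 286664 and 76724 bp from it in the non-CIN lists.

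*Cck* encodes cholecystokinin, the peptide of a class of basket cells, and is also used by many glutamatergic neurons. A single H3K27me3 peak over the TSS covered 4926 and 5767 bp of its window (chr9:121489824-121500694, minus strand) in CINs, compared with 5028 and 5859 bp in non-CINs. The peak lay at percentiles 97.3 to 98.3, and within each replicate number the populations differed by about 100 bp. The mean share of the window was 49.2 ± 5.47% in CINs and 50.1% in non-CINs (n = 2). All 3 annotated start sites of *Cck* were under this peak in all 4 lists.

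*Vip* encodes vasoactive intestinal peptide, the marker of interneurons that inhibit other interneurons. Its window (chr10:5634218-5647617, plus strand) held no peak of either mark in any of the 8 lists. The H3K27ac peak nearest to its TSS was 88469 and 166454 bp away in CINs, compared with 88614 and 110223 bp away in non-CINs. Its promoter, printed above, was the most AT-rich of the 8, with a GC content of 41.7% against a median of 57%.

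*Tac1* encodes the precursor of substance P and neurokinin A, found in subsets of parvalbumin cells. It was the only one of the 10 genes with both an H3K27me3 peak over the TSS and an H3K27ac peak in its window. H3K27me3 covered 4559 and 4987 bp of its window (chr6:7549879-7565834, plus strand) in CINs, compared with 4402 and 4978 bp in non-CINs, with the peak over the TSS at percentiles 96.8 to 98.6. The 2 populations overlapped. H3K27ac lay in a separate block inside the gene, starting 7265 to 7397 bp after the TSS and overlapping an exon.

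This *Tac1* block covered 1421 and 1107 bp in the CIN lists, against 857 and 678 bp in the non-CIN lists. Both CIN values lay above both non-CIN values, with means of 1264 ± 222 bp and 767.5 ± 127 bp (SD, n = 2), 1.65 times as much in CINs. The excess in CINs was 64.7%, and 39.8% when peaks up to 500 bp apart were merged, which joins the split block of non-CIN replicate 2. The fold percentile of the strongest peak was 69.2 and 54.1 in CINs, compared with 22.8 and 26.3 in non-CINs. The block was 1 peak in 3 lists and split in 2 in non-CIN replicate 2. With 2 lists against 2, the two-sided exact permutation test gave *p* = 0.33, the smallest it can give here and above 0.05 in any such comparison. A gene is therefore described as higher or lower in one population where both of its values lie outside those of the other, and 12.1% of all genes were higher in CINs by this rule.

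**Figure D2:**
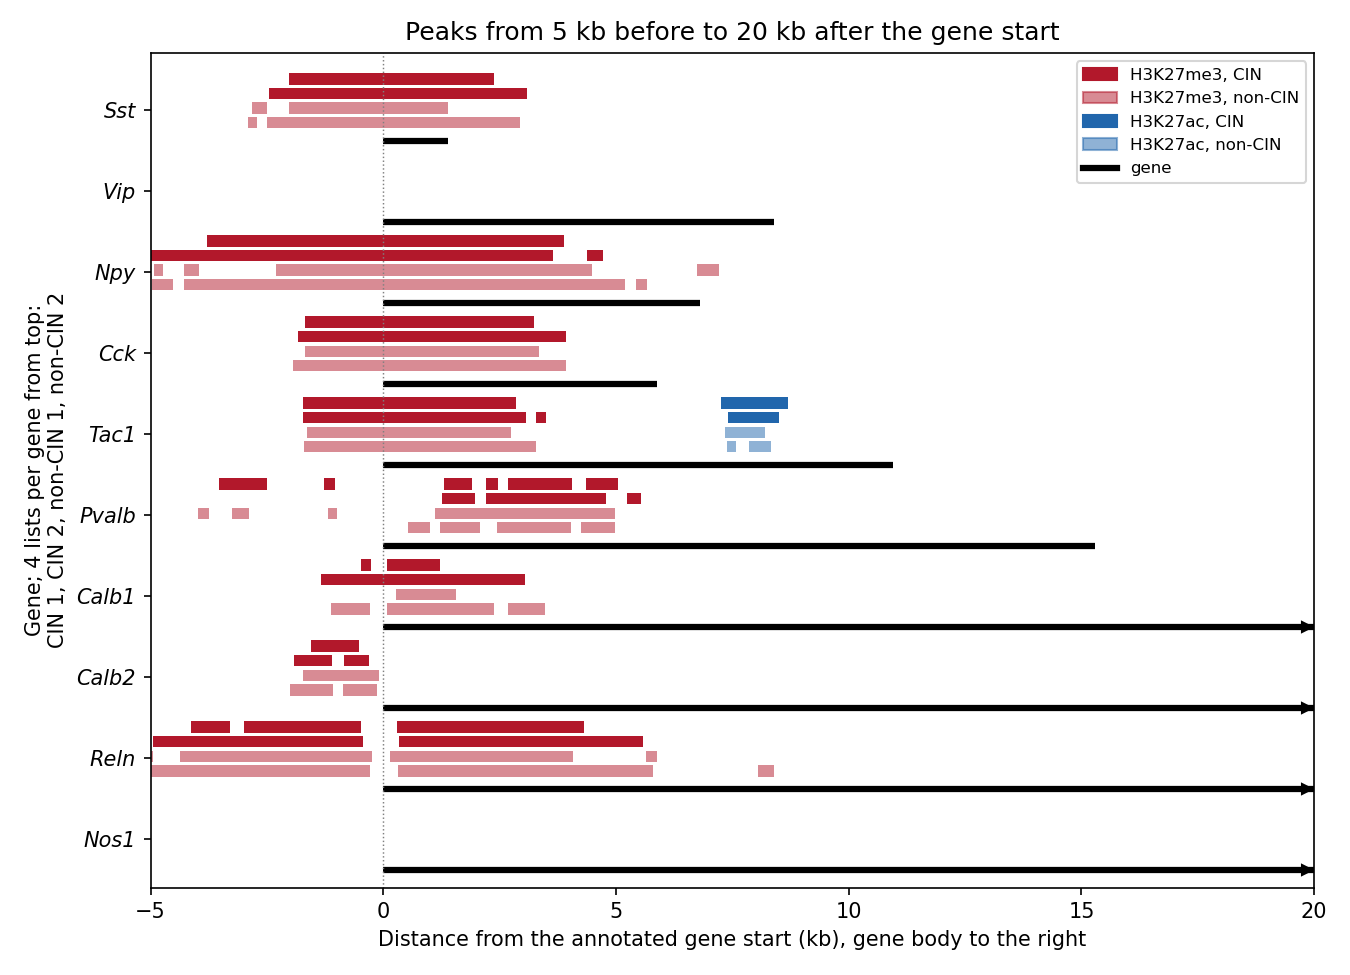
Peaks that touch each gene window, drawn by distance from the annotated start of the gene (kb, x axis; for *Nos1*, the start of the gene record) in the 4 lists of each mark, with CIN 1, CIN 2, non-CIN 1 and non-CIN 2 from top to bottom (red, H3K27me3; blue, H3K27ac; pale, non-CIN; black bar, gene). H3K27me3 spans the TSS in all 4 lists at *Sst*, *Npy*, *Cck* and *Tac1*, flanks it at *Reln*, lies before it at *Calb2* and mostly after it at *Pvalb*, and peaks of *Nos1* and of *Reln* further into the gene are outside the range drawn.

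Among the calcium-binding proteins, *Pvalb* encodes parvalbumin, the marker of fast-spiking basket and chandelier cells. H3K27me3 covered 4185 and 3595 bp of its window (chr15:78191114-78211400, minus strand) in CINs, compared with 4691 and 3630 bp in non-CINs, so the groups overlapped. No peak lay over its TSS. The H3K27me3 was in 3 to 6 separate peaks, the longest of which lay between 1116 and 4981 bp after the TSS in the 4 lists, near a second annotated start 2163 bp inside the gene that was itself under a peak in non-CIN replicate 1 alone. The strongest peak ranked at percentiles 83.9 and 93.3 in CINs, compared with 89.3 and 95.9 in non-CINs. In non-CIN replicate 1 it was a peak of 207 bp lying 990 bp upstream of the TSS, and the longest peak of that list ranked at 86.5. In the other lists the strongest peak was the longest one. The window held no H3K27ac, and the nearest H3K27ac peak was 23532 to 23751 bp from the TSS in all 4 lists.

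*Calb1* encodes calbindin, found in many somatostatin cells. Its H3K27me3 differed more between replicates than between populations, with 1357 bp in CINs and 1294 bp in non-CINs in replicate 1 and 4396 and 3940 bp in replicate 2 (window chr4:15876264-15908064, plus strand). The peak reached over the TSS in CIN replicate 2 alone, and in the other lists the main peak began 79 to 279 bp after it. The top percentile was 86.7 to 95.8.

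*Calb2* encodes calretinin, a marker of bipolar interneurons that often carry *Vip*. It was the only one of the 10 genes in which H3K27me3 differed between the populations without overlap. H3K27me3 covered 1031 and 1355 bp of its window (chr8:110137502-110173210, minus strand) in CINs, compared with 1630 and 1663 bp in non-CINs. Both CIN values were below both non-CIN values, with means of 1193 ± 229 bp and 1646 ± 23.3 bp (SD, n = 2), or 0.72 times as much in CINs (exact permutation *p* = 0.33). All of the peaks lay upstream of the TSS, their nearest edge 528 and 309 bp from it in CINs, compared with 92 and 129 bp from it in non-CINs. The top percentile was 70.9 in CINs against 64.6 in non-CINs in replicate 1 and 83.3 against about 83 in replicate 2, the lowest of the 9 genes with peaks in each of the 4 lists. With the gene body alone, where *Calb2* has no H3K27me3, the difference is gone.

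Of all genes, 4.53% had less H3K27me3 in both CIN lists than in both non-CIN lists and 2.99% had more, beside 1 and 0 of the 10 genes here, in a comparison that does not use the replicate numbers. Among all genes without overlap, 39.8% were higher in CINs, and 61.8% were when covered bp were divided by the covered Mb of each list. On that scale *Calb2* was still lower in CINs, and *Cck* and *Tac1* became higher. No direction is therefore given for the H3K27me3 of *Cck* or *Tac1*.

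*Reln* encodes reelin, which guides neuronal positioning and is made at this age by Cajal-Retzius cells of layer 1 and later by neurogliaform and some somatostatin interneurons. It is by far the longest of the 10 genes (460249 bp; window chr5:21884454-22349702, minus strand), and the starts of 7 other annotated genes, among them the antisense genes Gm10475 and Gm16110, lie in its window. H3K27me3 covered 16914 and 24573 bp in CINs, compared with 18703 and 30870 bp in non-CINs, in 17 to 22 peaks. Replicate 2 was higher in both populations, and the populations overlapped.

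The 2 strongest H3K27me3 peaks of *Reln* flanked its TSS and left it bare in every list. The one inside the gene began 287 and 328 bp after the TSS in CINs, compared with 145 and 321 bp after it in non-CINs and ranked at percentiles 98.4 to 99.3. The one upstream ended 485 and 439 bp before the TSS in CINs, compared with 242 and 288 bp before it in non-CINs, at percentiles 94.5 to 95.3. The 300 bases around the RefSeq start, with a GC content of 80.7%, held no H3K27ac peak in any list. Most of the other H3K27me3 lay 355088 to 414697 bp after the TSS.

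H3K27ac in the *Reln* window covered 5234 and 3671 bp in CINs, compared with 2452 and 1641 bp in non-CINs. Both CIN values lay above both non-CIN values, with means of 4452 ± 1105 bp and 2046 ± 573 bp (SD, n = 2), 2.18 times as much in CINs (exact permutation *p* = 0.33). The peaks numbered 8 and 8 in CINs, compared with 3 and 4 in non-CINs. All lay more than 62 kb inside the gene, and all were intronic except for 1 peak in non-CIN replicate 1 that touched an exon.

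Blocks starting 96319 to 96558 bp, 179699 to 180299 bp and 395049 to 395303 bp after the *Reln* TSS carried H3K27ac in all 4 lists, although at the middle one the short peaks of CIN replicate 2 and non-CIN replicate 2 did not touch. The block furthest into the gene ranked at percentiles 48.6 and 55.8 in CINs, compared with 57.2 and 72.4 in non-CINs. Peaks of both CIN lists with no counterpart in non-CINs started 62284 and 62340 bp, 249467 and 249558 bp, and 396458 and 396634 bp after the TSS. Another such block started at 250644 bp in CIN replicate 1 and was split in CIN replicate 2, with starts at 250675 and 251330 bp. With peaks of −log10 *q* of at least 4 alone, the CIN and non-CIN values of *Reln* overlapped and the excess in CINs was 33.6%, compared with 118% for all peaks.

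Of the 10 genes, 2 had more H3K27ac in both CIN lists (12.1% of all genes) and 0 had less (12% of all genes). H3K27ac and H3K27me3 shared 0 bp in the windows of *Tac1* and *Reln* in every list, and so in all 10 windows.

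**Figure D3:**
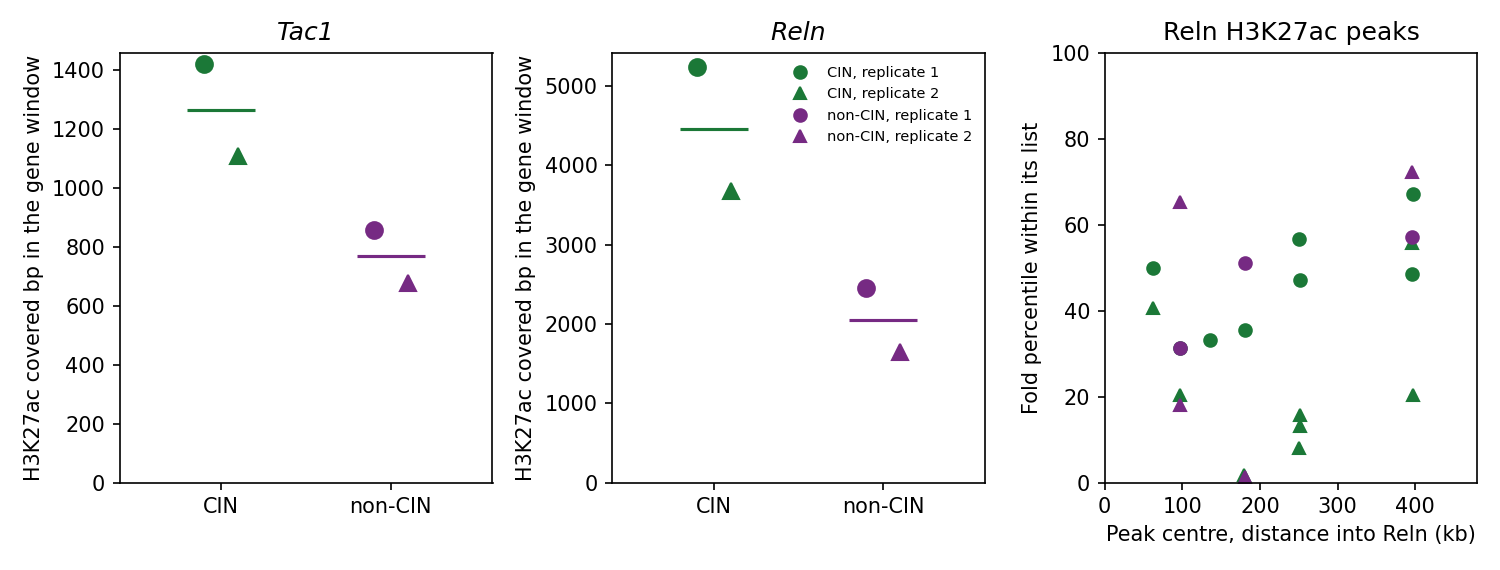
H3K27ac covered bp in the windows of *Tac1* and *Reln* (y axes; green, CIN; purple, non-CIN; circles, replicate 1; triangles, replicate 2; lines, means) and, at the right, the fold percentile of each *Reln* peak within its own list against the distance of its centre from the TSS (kb). Both CIN points lie above both non-CIN points at either gene, and the *Reln* peaks near 62 and 250 kb come from CIN lists alone.

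*Nos1* encodes the enzyme that makes nitric oxide in long-range projecting somatostatin cells and in neurogliaform cells. Its gene record (window chr5:117776032-117958840, plus strand) begins at a position where no transcript of the basic annotation starts, and the basic starts lie 60818, 86082 and 86087 bp inside it. Distances are from the start of the record. H3K27me3 covered 4733 and 5259 bp in CINs, compared with 5197 and 5034 bp in non-CINs, and the groups overlapped. Most of it was 1 peak of 3635 to 4624 bp that began 60001 to 60166 bp after the start of the record and lay over the first of the basic starts in all 4 lists, at percentiles 94.0 to 95.4. Counting any annotated TSS, 8 of the 10 genes had promoter H3K27me3 in both populations, the additions being *Nos1* and *Pvalb*. The share of all genes was not computed under this looser rule. The starts of Gm37028 and of the antisense gene Gm26995 also lie in the window.

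Ordered by the mean share of the window under H3K27me3 over the 4 lists, the genes ran *Npy* (72.4%), *Sst* (58.9%), *Cck* (49.6%), *Tac1* (29.7%), *Pvalb* (19.8%), *Calb1* (8.64%), *Reln* (4.89%), *Calb2* (3.98%), *Nos1* (2.77%) and *Vip* (0%). The ranges of the 4 lists overlapped between neighbours from *Npy* to *Cck* and from *Calb1* to *Calb2*. They did not overlap between *Cck* and *Tac1*, *Tac1* and *Pvalb*, or *Pvalb* and *Calb1*, and those of *Calb2* and *Nos1* were adjacent, at 2.89 to 4.66% and 2.59 to 2.88%. A long gene has a small share by construction. By share of the window, which keeps this dependence on length, each of the 9 genes with peaks stood above 80.1 to 99.0% of all genes over the 4 lists.

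H3K27ac regions of a single population within 100 kb of the genes were then counted. A CIN-only region is a stretch under H3K27ac in both CIN lists, from peaks merged over gaps of up to 500 bp, that has no overlap with the non-CIN list of the same replicate number. At least 1 CIN-only region lay within 100 kb of 4 genes, *Sst* (2 regions), *Cck* (4), *Calb2* (1) and *Reln* (4), against 24.9% of all genes. At least 1 non-CIN-only region lay near 2 genes, *Pvalb* (1) and *Nos1* (1), against 24.0% of all genes. No such region of either kind lay near *Vip*, *Npy*, *Tac1* or *Calb1*. Having 4 or more CIN-only regions, as *Cck* and *Reln* did, was found for 1.12% of all genes. These numbers depend on the settings: *Cck* had 3 and *Reln* 2 with merging over gaps of up to 1 kb, 3 and 1 with −log10 *q* of at least 4, and 1 each with a reciprocal overlap of 50%. *Reln* is long, and with the distance taken from the TSS it had 1.

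The sequence of 300 bases is shown for the region nearest to *Sst* and for the strongest and second strongest regions near *Cck*, since these carried H3K27ac in CINs alone and lay near genes whose own promoters were under H3K27me3. Capitals mark matches to the homeodomain, SOX or MEIS core on either strand, and all are printed on the plus strand (mm10). Each stretch was chosen within its region as the one with the most bases in such matches. The whole *Sst* region held 1 CTTTGT, the strongest *Cck* region 1 CTGTCA, and the second 2 TAATTA and 2 CTTTGT.
Sst region, chr16:23897896-23898195: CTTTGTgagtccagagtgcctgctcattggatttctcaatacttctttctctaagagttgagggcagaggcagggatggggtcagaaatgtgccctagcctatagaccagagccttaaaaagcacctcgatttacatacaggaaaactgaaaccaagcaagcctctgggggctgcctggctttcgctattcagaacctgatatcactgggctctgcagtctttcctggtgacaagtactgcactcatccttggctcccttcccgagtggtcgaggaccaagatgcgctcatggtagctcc
Cck region, strongest, chr9:121533073-121533372: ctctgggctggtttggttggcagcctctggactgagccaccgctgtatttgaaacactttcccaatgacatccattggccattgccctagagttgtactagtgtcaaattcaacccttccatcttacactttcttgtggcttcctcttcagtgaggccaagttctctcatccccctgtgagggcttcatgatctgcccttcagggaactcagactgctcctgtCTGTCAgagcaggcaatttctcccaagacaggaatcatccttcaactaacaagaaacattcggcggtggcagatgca
Cck region, second, chr9:121550408-121550707: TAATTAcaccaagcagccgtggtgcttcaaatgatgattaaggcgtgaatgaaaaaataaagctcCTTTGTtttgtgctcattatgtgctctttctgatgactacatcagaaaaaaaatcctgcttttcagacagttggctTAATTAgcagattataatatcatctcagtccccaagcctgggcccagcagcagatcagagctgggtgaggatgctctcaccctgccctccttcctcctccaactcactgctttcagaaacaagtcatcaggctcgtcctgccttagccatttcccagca

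The *Sst* region shown is part of chr16:23897806-23898369 (564 bp), which was intergenic with its centre 7129 bp upstream of the *Sst* TSS, and *Sst* was the nearest coding gene. Its peaks ranked at percentiles 54.7 and 44.9 of the 2 CIN lists. In the non-CIN lists the H3K27ac peak nearest to the *Sst* TSS was 62447 and 72821 bp away, whereas in the CIN lists it was 6649 and 6848 bp away. H3K27me3 covered none of the region in 3 lists and 186 bp in non-CIN replicate 2. The other *Sst* region, chr16:23828722-23828877, was 156 bp long, 62159 bp from the TSS and at percentiles 24.7 and 8.40.

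The strongest *Cck* region was part of chr9:121532857-121533589 (733 bp), in an intron of the non-coding gene Gm47095 with its centre 37529 bp upstream of the *Cck* TSS. Its percentiles of 88.0 and 89.1 were the highest of the 11 CIN-only regions. The second, chr9:121550109-121551026 (918 bp), was intergenic, 54873 bp upstream, at percentiles 76.1 and 78.1. *Cck* was the nearest coding gene to all 4 of its regions. Another region, chr9:121532084-121532350, lay beside the strongest one in the same intron, at percentiles 28.8 and 48.6, and the last lay 17990 bp beyond the TSS on the side of the gene end. In all, H3K27ac within 100 kb of *Cck* covered 13946 and 6147 bp in CINs, compared with 5261 and 3649 bp in non-CINs, and none of the 4 regions was under H3K27me3 in any list.

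The *Calb2* region, chr8:110242708-110243382 (675 bp; percentiles 67.2 and 37.8), was 74835 bp upstream of *Calb2* and nearer to the TSS of *Hydin*. The *Reln* regions were all intronic and were chr5:22281998-22282362 (365 bp; percentiles 49.9 and 40.6), chr5:21947828-21948068 (241 bp; 67.3 and 20.4), chr5:22093048-22094027 (980 bp; 47.2 and 15.7) and a last one of 553 bp. The regions of 980 and 553 bp held 3 and 2 TAATTA, and those of 365 and 241 bp held 0. Of 4181 CIN-only regions of any length on the chromosomes searched, 21.6% held at least 1 TAATTA, 47.0% at least 1 CTTTGT and 37.0% at least 1 CTGTCA.

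The non-CIN-only region near *Pvalb*, chr15:78172051-78172257 (207 bp; percentiles 44.1 and 15.8), lay in an intron of *Ift27*, 34246 bp from the *Pvalb* TSS. That near *Nos1*, chr5:117989483-117990117 (635 bp; percentiles 41.5 and 59.7), lay in an intron of *Fbxo21*, past the end of *Nos1*. Both were nearer to the TSS of the host gene than to that of the subtype gene. With replicate 1 alone, the CIN-only regions numbered 24 and lay near 8 genes, and with replicate 2 alone they numbered 14 and lay near 6. The shares of all genes given above are for the rule that needs both replicates and do not apply to these looser rules.

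**Figure D4:**
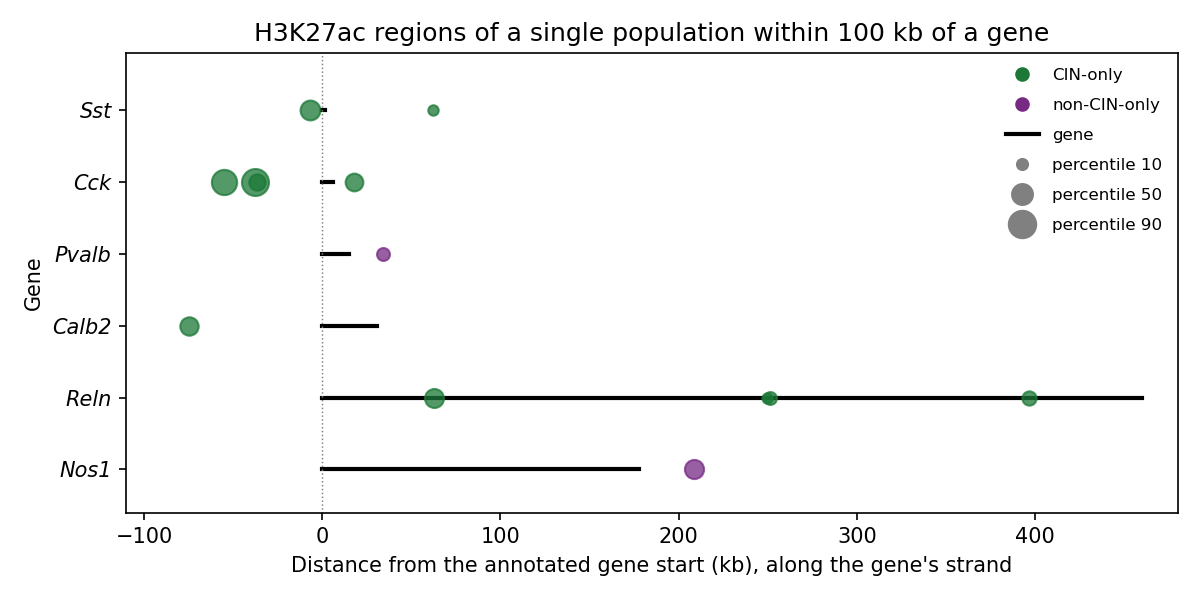
CIN-only (green) and non-CIN-only (purple) H3K27ac regions within 100 kb of the 6 genes that had one, by distance of the region centre from the TSS along the strand of the gene (kb, x axis; black line, gene; point area, the lower of the fold percentiles of the 2 replicates). The largest points are those 37529 and 54873 bp upstream of *Cck*, the pair near 250 kb of *Reln* and the pair near 37 kb of *Cck* overlap in the drawing, and both non-CIN-only points lie beyond the gene end.

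Another 20 markers of adult interneuron subtypes were listed for comparison, from known use. Of these, 15 had an H3K27me3 peak in all 4 lists (21.1% of all genes), 8 had H3K27ac in none (33.1%) and 7 had both features (5.68%). H3K27ac was higher in CINs at 4 and lower at 3 of the 20, against 12.1% and 12% of all genes. *Adarb2*, an RNA-editing family gene of interneurons from the caudal ganglionic eminence, had 9090 and 5703 bp in CINs, compared with 1222 and 418 bp in non-CINs. *Krt73* had 2823 and 1717 bp in CINs and 0 bp in both non-CIN lists, and *Chodl*, a marker of long-range *Nos1* cells, had 576 and 408 bp against 0 bp. The lower ones were *Syt2* (718 and 200 bp in CINs, 1877 and 1217 bp in non-CINs), *Cxcl14* (0 bp in both against 927 and 464 bp) and *Sncg* (846 and 1078 bp against 1802 and 1339 bp).

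H3K27me3 was higher in CINs at 2 of these 20 genes and lower at 3, against 2.99% and 4.53% of all genes. The higher ones were *Chat*, the acetylcholine-synthesizing enzyme (13616 and 14812 bp in CINs, 12204 and 12810 bp in non-CINs), and *Crhbp* (2483 and 2592 bp against 735 and 1939 bp). The lower ones were *Adarb2* (948 and 1438 bp against 1788 and 4990 bp), *Hpse* (0 and 468 bp against 633 and 603 bp) and *Chrna2* (200 and 254 bp against 353 and 562 bp). The median difference, CIN minus non-CIN, was 0 bp for H3K27ac and -36.8 bp for H3K27me3 over the 20 genes, and 0 bp for both marks over all genes.

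Among 23 receptors and partners of the peptides, reelin and nitric oxide, 14 had an H3K27me3 peak in all 4 lists (21.1% of all genes), 6 had H3K27ac in none (33.1%) and 4 had both features (5.68%). H3K27ac was higher in CINs at 1 and lower at 1, and H3K27me3 was higher at 2 and lower at 2, beside the shares of all genes just given. H3K27ac was higher in CINs at *Adcyap1r1*, a receptor of the VIP and PACAP family (4391 and 3744 bp against 2710 and 3135 bp), and lower at *Gucy1b1*, a subunit of the nitric oxide receptor (1985 and 1503 bp against 2833 and 2235 bp). H3K27me3 was higher in CINs at the somatostatin receptor *Sstr1* (3488 and 3658 bp against 2880 and 2713 bp) and the cholecystokinin receptor *Cckbr* (3635 and 4353 bp against 3457 and 3593 bp). It was lower at the reelin receptor *Vldlr* (288 and 1788 bp against 2434 and 4962 bp) and the neurokinin receptor *Tacr3* (3089 and 5445 bp against 5491 and 7932 bp). The median difference over the 23 genes was 0 bp for either mark.

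Over the 8 lists in percent of the window covered, the gene with the pattern nearest to that of *Tac1* was *Smug1*, at a Euclidean distance of 4.60 percentage points. The nearest to *Calb2* was *Ica1l*, at 0.89 percentage points, and the nearest to *Reln* was *Sh3gl2*, at 1.004 percentage points.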

How the data were processed

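Reads had been aligned to mm10 (BWA mem 0.7.15), filtered on mapping quality and called as broad peaks by the authors, replicate by replicate against the matched input, using MACS2 with a fixed extension and without its model or local background. The submitters' processing notes give MACS2 2.2.7, and the published methods give another version. The deposited columns are a score, the fold enrichment (a ratio of ChIP to input signal), and −log10 *p* with −log10 *q*, all as MACS2 wrote them for the authors. None is a read count, so counting error and depth per peak are unknown. Fold enrichment was used only as a percentile within its own list.

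Covered bp in each window were counted from unmerged peaks with Python 3.11.15, NumPy 2.4.6 and pandas 2.3.3, and genes came from the GENCODE vM21 basic annotation. The TSS was the start of the gene record, at which no basic transcript starts for 3492 of 21938 protein-coding genes, *Nos1* among them. All 40 interval operations tested on simulated data equalled those of bedtools 2.31.1. CIN-only and non-CIN-only regions used peaks merged at 500 bp, at least 1 bp of overlap and the replicate number as a block, after the authors' comparison within replicates. Covered bp were compared without a block, by non-overlap of the 2 CIN and 2 non-CIN lists and by two-sided exact permutation tests over lists. The study describes the replicates as biological, and the sources used here do not say whether the CIN and non-CIN samples of a replicate number came from one sort.

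The genes and the comparison lists were chosen with earlier results of these data known. The genes named are the 10 subtype genes, up to 3 per direction and mark from each comparison list with the largest difference among those without overlap, the genes with the nearest pattern to *Tac1*, *Calb2* and *Reln*, genes starting in a window, and the genes nearest to a region. *Lhx6* and the other cell type markers were named as a check of the sort, after their values were seen, as was the pair of *Nos1* and *Pvalb* starts. Coordinates are given for up to 3 regions per gene. Alternatives were stricter *q*, lists of equal length, other windows, scaling by covered Mb, merging, overlap, block and single replicates. Input samples have no list of their own and were not used here.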

Additional observations from a re-analysis of the deposited data

How the results depend on the processing

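With 2 lists in each group no exact test over lists can pass 0.05, so these are descriptive calls. For H3K27ac, *Tac1* and *Reln* remained the genes with more covered bp in CINs under every alternative tried except −log10 *q* of at least 4 (1 gene, *Tac1*) and 2 kb on either side of the TSS (0 genes, since neither has a peak there), and no gene had less in CINs. The share of all genes with more was 19.9% with the replicate block, 27.7 to 37.4% with a single replicate and 10.7 to 13.2% otherwise. For less it was 19.5%, 28.9 to 34.4% and 7.88 to 13.5%. For H3K27me3, the number of genes with less in CINs was 2 with lists of equal length (3.17% of all genes), 2 with the gene body alone (3.46%), 3 within 2 kb of the TSS (2.19%) and 3 with merged peaks (4.56%), and the number with more was 1 within 2 kb of the TSS (2.67%) and 2 per covered Mb (6.19%). *Calb2* was among the lower genes in all of these except the gene body. Without one replicate, where any difference counts, 3 genes were higher (14.03 to 14.91% of all genes) and 6 lower (18.73 to 20.19%) in either case.

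The labels do not say that a replicate number marks a shared preparation, and with 2 pairs the numbers do not establish it. The difference between replicates correlated between populations across genes (0.35 over 14672 genes for H3K27ac, 0.74 over 8941 genes for H3K27me3). With the replicate block, 2 genes (*Tac1* and *Calb1*) had more H3K27me3 in CINs, against 6.81% of all genes, and 5 (*Sst*, *Cck*, *Pvalb*, *Calb2* and *Reln*) had less, against 10.3% of all genes. For H3K27ac, *Tac1* and *Reln* were higher in CINs, against 19.9% of all genes. Without the block, the CIN-only regions stayed at 11 and the non-CIN-only ones at 2.

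CIN-only regions numbered 5 at 50% reciprocal overlap, 14 to 24 with a single replicate (near 6 to 8 genes), and 8 to 13 otherwise. Non-CIN-only regions numbered 1, near 1 gene, with merging at 1 kb, with −log10 *q* of at least 4 or within 100 kb of the TSS, and 5 to 7, near 4 to 6 genes, with a single replicate. For both kinds of region, the share of all genes was not computed at these settings, and the rule with a single replicate is looser. The bp under both marks stayed at 0 with the window to 5 kb past the gene end, and were not recomputed with merged peaks. The stricter *q*, lists of equal length, the gene body and either replicate alone only remove peaks or area, so their 0 was fixed. No gene had an H3K27ac peak within 2 kb of its TSS, which fixed the 0 there too. No member had promoter H3K27ac in both populations with a wider promoter, any annotated TSS or either replicate alone. The stricter *q* could not add one. The cause of these shifts was not tested. Without read depths, a peak missing from one list cannot be told apart from one just under the threshold.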
